A study of Mus musculus with 28 samples.

Results

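The 10 genes described here are Nodal pathway components, followed in mESCs (mouse embryonic stem cells) and the EBs (embryoid bodies) grown from them: the ligands Nodal and Gdf3, the co-receptors Tdgf1 and Cfc1, the receptor Acvr2b, the effector Smad3, and the inhibitors Lefty1, Lefty2, Cer1 and Smad7. They were taken by gene name from the 37583 genes of 2 deposited expression tables, and all 10 were found. Expression was measured by sequencing of total RNA after removal of ribosomal RNA, in 28 libraries that fall into 13 groups. Values are RPKM (reads per kilobase of transcript, scaled to sequencing depth), which can be compared between genes within a library.

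Nodal is a secreted ligand of the TGF-beta family that signals through activin receptors together with an EGF-CFC co-receptor (Tdgf1, also called Cripto, or Cfc1, also called Cryptic) to the effectors Smad2 and Smad3, which act on DNA with Foxh1. The pathway is known for patterning the early embryo, where it directs formation of the primitive streak, mesoderm and endoderm, and it is active in mouse embryonic stem cells. Lefty1 and Lefty2 are secreted inhibitors that are themselves induced by Nodal signalling, so that the pathway limits itself. Cer1 (Cerberus) binds Nodal outside the cell, and Smad7 blocks the receptors inside it.

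The mESC groups of the CJ7 line were Eed null, EloA K754M, EloA K754R and wild type (WT), with 2 libraries each. In the CCE line, 3 EloA null libraries were set against 3 WT libraries. Eed is a core subunit of Polycomb repressive complex 2 (PRC2), the histone H3 lysine 27 methyltransferase. EloA is Elongin A, a transcription elongation factor (gene Tceb3 in the tables), and K754M and K754R are edited substitutions at a lysine of that protein in CJ7 cells. The mESCs were grown on feeder fibroblasts with LIF and the 2i inhibitors PD0325901 and CHIR99021, and the feeders were depleted by plating before RNA was taken. The EB groups, collected on day 5 after LIF withdrawal, were Eed null, K754M, K754R and WT from CJ7, and 3 CCE groups, with 2 libraries each. In all groups the labels do not say whether replicates were separate cultures or clones, so p-values measure the spread between libraries, which may be technical.

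The labels of 2 CCE EB pairs contradict each other: libraries whose data columns are named EloAhet are titled EloA-null, and libraries whose columns are named EloAnull are titled EloA+/-. They are called here by their columns, the EloAhet columns and the EloAnull columns, and no genotype is assigned to either. Eed RNA was 22.1 to 22.3 RPKM in Eed null mESCs against 105 to 119 RPKM in CJ7 WT mESCs, and 15.8 to 16.3 RPKM in Eed null EBs against 49.6 to 55.3 RPKM in CJ7 WT EBs. Tceb3 was 6.17 to 8.02 RPKM in EloA null mESCs against 10.7 to 11.7 RPKM in CCE WT mESCs. In EBs it was 7.94 to 9.09 RPKM in the EloAhet columns and 7.70 to 8.64 RPKM in the EloAnull columns, against 9.89 to 11.4 RPKM in CCE WT, so this gene did not separate the 2 disputed pairs. Estimated depth was 11.1 to 18.2 M (mega) reads in CJ7 mESCs, 24.3 to 34.6 M reads in EloA null mESCs against 42.8 to 46.3 M reads in CCE WT mESCs, 28.7 to 39.8 M reads in CJ7 EBs and 23.6 to 30.8 M reads in CCE EBs. The expression tables of the 2 stages were separate, so levels of mESCs and EBs are set side by side without a test. In these bulk samples, fewer cells of a type and less RNA per cell cannot be told apart. The summed RPKM of 13 pluripotency markers was at least 1510 in every mESC library and at most 780 in every EB library.

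The 4 promoters below belong to members that passed the test between groups with the larger changes and have an entry in the RefSeq promoter table of build GRCm38.p6; the expression tables themselves use mm9, per the submitters' processing notes. Lefty1, Lefty2 and Gdf3 are named only. Each window runs from 250 bases before the annotated start to 50 bases after it, 5′ to 3′ on the strand of the gene. Capitals mark matches to 2 motifs searched on both strands, AATNNACA (FoxH1-type) and CAGAC (Smad-type, CAGAC or its reverse complement).

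Tdgf1 promoter, chr9:110946109-110946408, minus strand: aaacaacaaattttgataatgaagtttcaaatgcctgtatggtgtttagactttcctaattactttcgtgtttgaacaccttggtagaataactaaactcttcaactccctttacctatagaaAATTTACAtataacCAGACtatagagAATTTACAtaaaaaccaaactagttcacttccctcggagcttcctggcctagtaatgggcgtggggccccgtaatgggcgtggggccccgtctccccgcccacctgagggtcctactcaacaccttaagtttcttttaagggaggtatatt

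Cfc1 promoter, chr1:34535398-34535697, plus strand: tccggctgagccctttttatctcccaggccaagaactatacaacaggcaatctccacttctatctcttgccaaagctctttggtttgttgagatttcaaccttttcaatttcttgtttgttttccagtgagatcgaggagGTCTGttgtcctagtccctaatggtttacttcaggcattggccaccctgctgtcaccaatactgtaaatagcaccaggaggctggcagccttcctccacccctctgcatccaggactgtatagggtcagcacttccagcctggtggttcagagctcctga

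Cer1 promoter, chr4:82885102-82885401, minus strand: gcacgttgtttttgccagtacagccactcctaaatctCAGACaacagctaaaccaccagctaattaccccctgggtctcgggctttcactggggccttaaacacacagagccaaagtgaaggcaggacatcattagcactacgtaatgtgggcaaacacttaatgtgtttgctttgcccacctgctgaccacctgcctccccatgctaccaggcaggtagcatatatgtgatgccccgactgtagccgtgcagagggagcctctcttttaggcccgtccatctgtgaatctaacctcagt

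Nodal promoter, chr10:61417722-61418021, plus strand: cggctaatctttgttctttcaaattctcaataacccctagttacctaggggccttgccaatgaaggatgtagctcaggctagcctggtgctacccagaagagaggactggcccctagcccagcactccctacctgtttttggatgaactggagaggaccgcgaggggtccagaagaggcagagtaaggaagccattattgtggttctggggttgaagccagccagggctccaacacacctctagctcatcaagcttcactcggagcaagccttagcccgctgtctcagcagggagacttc

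The Tdgf1 window held 2 FoxH1-type matches, at -127 and -101 from the start, with a Smad-type match between them at -113. The Cer1 window held 1 Smad-type match at -213, the Cfc1 window held 1 at -110 on the opposite strand, and the Nodal window held neither motif. Of 32851 RefSeq promoter windows, 12.2% held a FoxH1-type match and 49.6% a Smad-type match, so the Smad-type match alone is common. CpG dinucleotides numbered 7 in the Tdgf1 window, 2 in Cfc1, 6 in Cer1 and 5 in Nodal, against a median of 7 over all windows. The promoters of Smad3 and Acvr2b were CpG-rich, with 25 and 27 CpG dinucleotides and GC contents of 67.7% and 73.3%. A match says only that these letters occur in the window.

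Lefty1, Lefty2, Cfc1 and Tdgf1 share the most sequence with other genes. Cer1 and Gdf3 share less, 1.78% and 1.77% of the 50-base stretches of their transcripts. Lefty1 and Lefty2 are neighbours on chromosome 1, and 17.9% of the 50-base stretches of the Lefty1 transcripts also occur in Lefty2 (12% of those of Lefty2 occur in Lefty1), so reads could be split between them. Cfc1 shares 24.3% of its stretches with Prss40, a gene that overlaps it on the opposite strand over 289 exon bases. Prss40 itself stood at 0 to 0.0706 RPKM in mESCs and 0.12 to 1.24 RPKM in EBs. Tdgf1 shares 8.86% of its stretches with the pseudogene Tdgf1-ps1. The sources used here do not say whether the counting used the strand.

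In CJ7 EBs, the members that differed from WT in at least 1 group were both ligands, both co-receptors, Smad3, Lefty1, Lefty2 and Cer1; in mESCs they were Lefty1, Lefty2 and Smad3. Differences were tested with limma on log2(RPKM + 0.5), with p-values adjusted over all genes of the fit, and a gene is called at an adjusted p below 0.05. In Eed null EBs, 4 of 10 members were higher and 2 lower than in WT, in a comparison where 30.4% of all genes were called. In K754R EBs, 1 member was higher and 3 lower than in WT, against 9.68% of all genes called. In K754M EBs, 1 of 10 members was higher and none lower than in WT, against 0.565% of all genes called. Between K754M and K754R EBs, 4 of 10 members differed, all higher in K754M, where 3.62% of all genes were called. Eed null EBs differed from K754M EBs in 6 members (4 higher, 2 lower, 27.2% of all genes called) and from K754R EBs in 8 members (5 higher, 3 lower, 34% of all genes called). These EB comparisons share libraries, since each CJ7 EB group enters several of them. The median log2 change over the 10 members was 0.35 in Eed null, 0.31 in K754M and -0.20 in K754R EBs, beside 0.05, 0.01 and 0.01 over all genes tested.

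In mESCs, 8 members had enough signal to be tested. Eed null mESCs had 2 members higher and none lower than WT (8.59% of all genes called), and EloA null mESCs had 1 lower and none higher (3.35% of all genes called). No member was called in K754M mESCs (0% of all genes, with 2103 of 21012 genes and 0 of 8 members at an unadjusted p below 0.05) or in K754R mESCs (0.162% of all genes called). In K754R mESCs, 4 of 8 members had an unadjusted p below 0.05, as did 14.3% of all genes (3000 of 21012). The labels do not say what a replicate number shares. With that number as a block, EloA null mESCs had 4 members lower, while the share of all genes called also grew, to 12.4%. Cer1 and Cfc1 passed the filter on low values in EBs alone.

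In CCE EBs, no member was called in the EloAhet columns against WT (0% of all genes, with 1166 of 17735 genes and 4 of 10 members at an unadjusted p below 0.05). None was called in the EloAnull columns against WT either (0.135% of all genes called, with 7 of 10 members and 2746 of 17735 genes, or 15.5%, at an unadjusted p below 0.05). Between the EloAnull and the EloAhet columns, 2 of 10 members were called, both lower in the EloAnull columns (0.44% of all genes called). With the replicate block, 7 members differed between the EloAnull columns and WT, 2 higher (Nodal and Lefty1) and 5 lower (Tdgf1, Cfc1, Acvr2b, Smad3 and Cer1), where 3.96% of all genes were called. Between the EloAnull and the EloAhet columns the block gave 4 members, Smad7 higher and Tdgf1, Cfc1 and Cer1 lower, where 8.24% of all genes were called. No member and no gene was called in the EloAhet columns against WT with the block either.

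**Figure D1:**
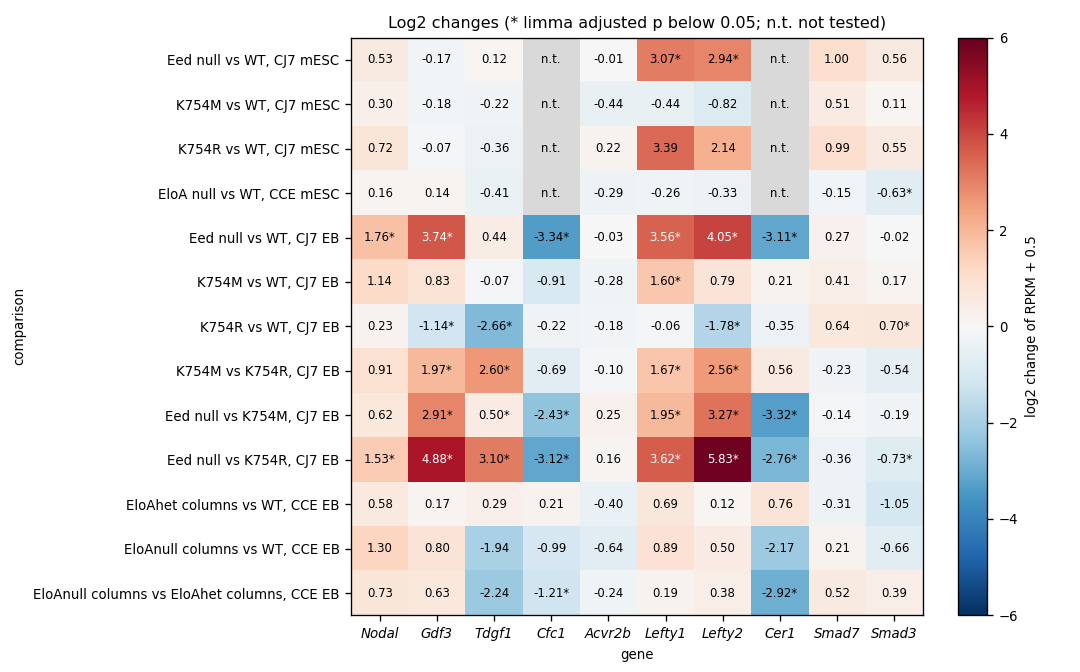
Log2 changes of RPKM + 0.5 for the 10 genes (columns, by role) in 13 comparisons (rows, the first-named group over the second); an asterisk marks a limma adjusted p below 0.05 and n.t. a gene not tested for low signal. The row for Eed null against WT EBs holds the calls for Nodal, Gdf3, Lefty1 and Lefty2 (higher) and for Cfc1 and Cer1 (lower), and the K754R row holds the lower Tdgf1.

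**Figure D2:**
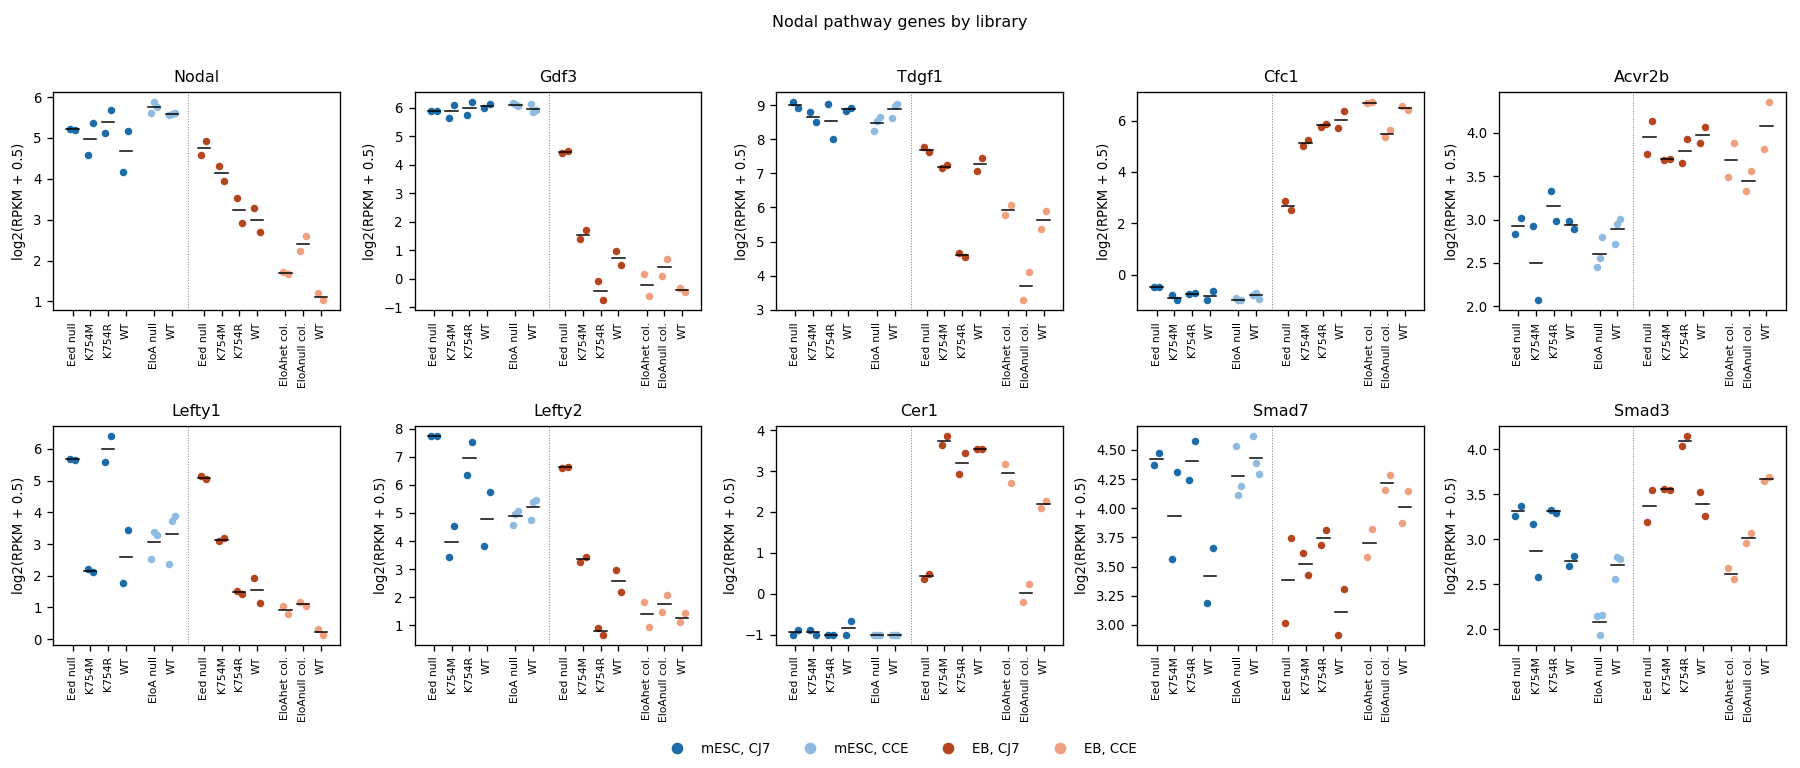
Level of each gene in every library as log2(RPKM + 0.5), with 1 panel per gene, points for libraries and black lines for the group means of the log values; CJ7 and CCE groups stand side by side and a dotted line separates mESCs (left) from EBs (right). Cfc1 and Cer1 lie near the bottom of the scale in all mESC libraries, and Tdgf1 lies lower in K754R EBs and in the EloAnull columns than in the WT EBs of the same line.

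Nodal, the ligand the pathway is named for, was higher in Eed null EBs and was not called in any mESC comparison. It stood at 23.4 and 29.9 RPKM in Eed null EBs, 19.4 and 15.0 RPKM in K754M EBs and 11.1 and 7.03 RPKM in K754R EBs, against 9.23 and 6.00 RPKM in CJ7 WT EBs. The Eed null and K754M values lay above all WT values, whereas K754R and WT overlapped. The log2 change was 1.76 ± 0.28 in Eed null (SE, n = 2 libraries a group, as in every CJ7 comparison; limma adjusted p = 0.0032), 1.14 ± 0.28 in K754M (adjusted p = 0.124) and 0.23 ± 0.28 in K754R (adjusted p = 0.636). Against K754R EBs, Nodal was also higher in Eed null EBs, by 1.53 ± 0.28 (adjusted p = 0.00482).

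In CCE EBs, Nodal was 2.78 and 2.66 RPKM in the EloAhet columns and 4.21 and 5.54 RPKM in the EloAnull columns, against 1.79 and 1.53 RPKM in WT. The 3 CCE groups did not overlap, and the log2 change of the EloAnull columns over WT was 1.30 ± 0.18, with an adjusted p of 0.0593 (0.0306 with the replicate block). In mESCs, Nodal was 36.9 and 36.3 RPKM in Eed null, 23.6 and 40.9 in K754M and 34.1 and 51.2 in K754R, against 17.6 and 35.7 RPKM in CJ7 WT. The 2 WT libraries differed from each other by more than the Eed null pair did, and of the neighbours in the order of the 6 mESC means only the EloA null (48.8, 58.6 and 53.5 RPKM) and CCE WT groups (47.1, 47.3 and 48.6 RPKM) did not overlap. The Nodal log2 change in EloA null mESCs was 0.16 ± 0.07 (n = 3 each, adjusted p = 0.29).

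Gdf3, a related ligand that works through the same co-receptors and is known as a marker of pluripotent cells, was higher in Eed null EBs. It stood at 20.7 and 22.0 RPKM in Eed null EBs, 2.10 and 2.77 RPKM in K754M EBs and 0.442 and 0.0882 RPKM in K754R EBs, against 1.45 and 0.880 RPKM in WT EBs. None of these 4 groups overlapped: Eed null was highest and K754R lowest. The log2 change was 3.74 ± 0.28 in Eed null (adjusted p = 0.000129), 0.83 ± 0.28 in K754M (adjusted p = 0.228) and -1.14 ± 0.28 in K754R (adjusted p = 0.0459). The call in K754R was lost whichever of the 4 libraries was left out (log2 change -1.48 to -0.80, adjusted p 0.0654 to 0.213), with a pseudocount of 1 and without the filter on low values (adjusted p up to 0.0907), and values this low sit close to the 0.5 RPKM added before the log.

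Between the substitutions, Gdf3 was higher in K754M than in K754R EBs by 1.97 ± 0.28 (adjusted p = 0.0168). That call was lost without either K754M library and without K754R replicate 2 (adjusted p 0.105 to 0.122). Eed null EBs were higher than K754M EBs by 2.91 ± 0.28 and higher than K754R EBs by 4.88 ± 0.28 (adjusted p = 0.000384 and 3.61e-05). In mESCs all groups lay within 49.4 to 73.6 RPKM, and the Eed null log2 change there was -0.17 ± 0.21 (adjusted p = 0.662). CCE EBs held 0.605 and 0.161 RPKM in the EloAhet columns and 0.571 and 1.13 RPKM in the EloAnull columns, against 0.304 and 0.219 RPKM in WT, and Gdf3 was not called in any CCE comparison.

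Tdgf1, the co-receptor Nodal needs in the early embryo, was the member with the largest fall in K754R EBs. It stood at 220 and 196 RPKM in Eed null EBs, 142 and 151 RPKM in K754M EBs and 24.8 and 22.8 RPKM in K754R EBs, against 135 and 174 RPKM in CJ7 WT EBs. Both K754R libraries lay far below every other CJ7 EB library, and K754M and WT overlapped. The log2 change was -2.66 ± 0.15 in K754R (adjusted p = 0.000554), -0.07 ± 0.15 in K754M (adjusted p = 0.88) and 0.44 ± 0.15 in Eed null (adjusted p = 0.0616). The K754R call held whichever library was left out (log2 change -2.85 to -2.48), and the Eed null change was called without WT replicate 2 (log2 change 0.62, adjusted p = 0.0323).

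The difference between the substitutions was tested directly: Tdgf1 was higher in K754M than in K754R EBs by 2.60 ± 0.15 (adjusted p = 0.00101), and it stayed called whichever library was left out. Eed null EBs were higher than K754R EBs by 3.10 ± 0.15 (adjusted p = 2.12e-05). They were higher than K754M EBs by 0.50 ± 0.15 (adjusted p = 0.0415), a call lost whichever of the 4 libraries was left out (adjusted p 0.0515 to 0.194). It was also lost without the filter, with TMM rescaling, without the mean-variance trend and with all libraries of the stage in 1 fit (adjusted p up to 0.179).

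In CCE EBs, Tdgf1 was 54.8 and 66.3 RPKM in the EloAhet columns and 9.16 and 16.7 RPKM in the EloAnull columns, against 40.9 and 58.9 RPKM in WT. The EloAnull columns lay below both other groups, which overlapped. Their log2 change was -1.94 ± 0.31 against WT (adjusted p = 0.0703) and -2.24 ± 0.31 against the EloAhet columns (adjusted p = 0.0583). Both were called with the replicate block, with adjusted p-values of 0.0183 and 0.0141. They were also called with all EB libraries in 1 fit (adjusted p = 0.0047 and 0.00303). The change against the EloAhet columns was called with a filter of 1 RPKM too (adjusted p = 0.0377). Counts over all genes grew under these settings as well, as given at the end. In mESCs, Tdgf1 had the highest level per length of the 10 genes in every library, 259 to 549 RPKM. EloA null mESCs had 303, 371 and 400 RPKM against 393, 506 and 527 RPKM in CCE WT, a log2 change of -0.41 ± 0.14 (adjusted p = 0.212). It was called with the replicate block (adjusted p = 0.00442).

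Cfc1, the other EGF-CFC co-receptor, known for its role in left-right patterning, was near the limit of detection in mESCs and abundant in EBs. Its mESC values were 0 to 0.215 RPKM, at most 5 estimated reads in a library. In EBs it stood at 6.86 and 5.16 RPKM in Eed null, 31.6 and 37.4 RPKM in K754M and 53.2 and 58.4 RPKM in K754R, against 51.5 and 81.7 RPKM in CJ7 WT. Eed null libraries were lowest, K754M lay below WT without overlap, and K754R overlapped WT. The log2 change was -3.34 ± 0.23 in Eed null (adjusted p = 0.000102), -0.91 ± 0.23 in K754M (adjusted p = 0.138) and -0.22 ± 0.23 in K754R (adjusted p = 0.592).

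Eed null EBs were also lower in Cfc1 than K754M EBs, with a log2 change of -2.43 ± 0.23 (adjusted p = 0.000374), and than K754R EBs, with -3.12 ± 0.23 (adjusted p = 8.58e-05). CCE EBs had 101 and 106 RPKM in the EloAhet columns and 40.8 and 48.5 RPKM in the EloAnull columns, against 93.0 and 85.4 RPKM in WT. Here the EloAnull columns were lowest and the 3 groups did not overlap. The log2 change of the EloAnull columns was -1.21 ± 0.12 against the EloAhet columns (adjusted p = 0.0487) and -0.99 ± 0.12 against WT (adjusted p = 0.0566, and 0.0227 with the replicate block). The first call was lost whichever of the 4 libraries was left out (adjusted p 0.193 to 0.347), and with a pseudocount of 0.1, without the filter, with TMM rescaling or without the trend (adjusted p up to 0.0754). The ratio of Tdgf1 to Cfc1 within a library was 32.1 and 37.9 in Eed null EBs, 4.48 and 4.05 in K754M and 0.466 and 0.390 in the K754R libraries, against 2.62 and 2.13 in CJ7 WT EBs.

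Acvr2b, a type II receptor that binds Nodal and activins, was not called in any comparison without the replicate block. It ranged from 3.69 to 9.57 RPKM over the mESC libraries and from 9.56 to 20.0 RPKM over the EB libraries. Its log2 changes against WT ran from -0.64 ± 0.23 in the EloAnull columns (adjusted p = 0.27, and 0.0441 with the block) to 0.22 ± 0.30 in K754R mESCs (adjusted p = 0.783). With the replicate block, its change of -0.29 in EloA null mESCs had an adjusted p of 0.0467.

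Smad3, which carries the signal to the nucleus, was lower in EloA null mESCs. It stood at 3.94, 3.33 and 3.96 RPKM in EloA null against 5.39, 6.46 and 6.34 RPKM in CCE WT mESCs. Every EloA null library lay below every WT library. The log2 change was -0.63 ± 0.10 (n = 3 each, adjusted p = 0.028), and the call was lost without any 1 of the EloA null libraries or without WT replicate 2 or 3 (log2 change -0.67 to -0.56, adjusted p 0.0643 to 0.136), without the filter and with all mESC libraries in 1 fit (adjusted p up to 0.0722). With the replicate block, 4 of 8 members were called in this comparison against 1 without it: Smad3, Tdgf1, Acvr2b and Lefty2, all lower. The block moved the count over all genes alike, to 2288 of 18460 genes against 619 without it.

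In CJ7 mESCs, Smad3 was 9.06 and 9.84 RPKM in Eed null against 6.02 and 6.51 RPKM in WT, a log2 change of 0.56 ± 0.21 (adjusted p = 0.163). The Eed null effect in CJ7 and the EloA null effect in CCE were compared in 1 fit over both lines, where 13.6% of 21780 genes differed and 4 of 8 members did, all with the higher change in Eed null. For Smad3 the difference between the effects was 1.19 ± 0.23 on the log2 scale (adjusted p = 0.00766), and it was called whichever of the 10 libraries was left out. The difference also spans the change of cell line.

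In EBs, Smad3 was 8.62 and 11.1 RPKM in Eed null, 11.3 and 11.2 RPKM in K754M and 15.9 and 17.2 RPKM in K754R, against 11.01 and 9.04 RPKM in CJ7 WT. Only K754R stood clear above the rest, by 0.70 ± 0.16 on the log2 scale over WT (adjusted p = 0.0366), a call lost whichever of the 4 libraries was left out (log2 change 0.57 to 0.84, adjusted p 0.0517 to 0.194), without the filter and without the trend (adjusted p up to 0.0607). Eed null EBs were lower than K754R EBs, with a log2 change of -0.73 ± 0.16 (adjusted p = 0.0106), a call lost without K754R replicate 2 (log2 change -0.67, adjusted p = 0.0728). CCE EBs had 5.92 and 5.37 RPKM in the EloAhet columns and 7.25 and 7.87 RPKM in the EloAnull columns, against 12.02 and 12.39 RPKM in WT. Both column pairs lay below WT, with log2 changes of -1.05 ± 0.12 (adjusted p = 0.664) and -0.66 ± 0.12 (adjusted p = 0.0913). The change in the EloAnull columns had, with the replicate block, an adjusted p of 0.0408.

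Lefty1 and Lefty2, the feedback inhibitors, were higher in Eed null cells at both stages. In mESCs, Lefty1 stood at 51.2 and 50.3 RPKM in Eed null, 4.12 and 3.84 RPKM in K754M and 47.4 and 84.3 RPKM in K754R, against 2.93 and 10.3 RPKM in CJ7 WT. Lefty2 stood at 213 and 212 RPKM in Eed null, 10.3 and 22.5 RPKM in K754M and 81.8 and 182 RPKM in K754R, against 13.7 and 53.7 RPKM in WT. For both genes every Eed null and K754R library lay above both WT libraries, and K754M overlapped WT. The 2 WT libraries were far apart, replicate 1 being the lower for both genes.

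The mESC log2 change in Eed null was 3.07 ± 0.52 for Lefty1 (adjusted p = 0.0196) and 2.94 ± 0.69 for Lefty2 (adjusted p = 0.0491). In K754R it was 3.39 ± 0.52 for Lefty1 (adjusted p = 0.0728) and 2.14 ± 0.69 for Lefty2 (adjusted p = 0.236), and in K754M -0.44 ± 0.52 and -0.82 ± 0.69 (adjusted p = 0.866 and 0.8). With all mESC libraries in 1 fit, both K754R changes were called (limma adjusted p = 0.00661 for Lefty1 and 0.0478 for Lefty2). In that fit 1747 of all genes were called in K754R, against 34 without the CCE libraries. The Eed null calls were lost without either Eed null library (adjusted p 0.136 to 0.247), and the Lefty2 call also without WT replicate 1, where its log2 change was 1.97 (adjusted p = 0.191), and with a pseudocount of 0.1, without the filter, with TMM rescaling or without the trend (adjusted p up to 0.0764). Summed RPKM of 11 fibroblast markers, the feeder cell type, was 173 to 257 in Eed null, 135 to 326 in K754M and 177 to 638 in K754R against 141 to 176 in CJ7 WT mESCs. None of the 11 markers was at 0 in all libraries of one of these groups, and the part of feeder cells in these results was not tested.

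EloA null mESCs had 5.28, 9.95 and 9.35 RPKM of Lefty1 against 4.67, 12.8 and 14.4 RPKM in CCE WT mESCs. For Lefty2 they had 23.4, 30.8 and 33.4 RPKM against 26.6, 41.8 and 43.6 RPKM. The groups overlapped for both genes, with log2 changes of -0.26 ± 0.43 and -0.33 ± 0.21 (adjusted p = 0.804 and 0.476), and with the replicate block Lefty2 had an adjusted p of 0.0295. The Eed null effect exceeded the EloA null effect by 3.33 ± 0.75 for Lefty1 (adjusted p = 0.0155) and 3.27 ± 0.75 for Lefty2 (adjusted p = 0.0167). Both calls were lost without either Eed null library (adjusted p 0.0582 to 0.0648), and that of Lefty1 also without CJ7 WT replicate 1 (log2 difference 2.51, adjusted p = 0.0579).

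In EBs, Lefty1 was 34.9 and 32.5 RPKM in Eed null, 8.001 and 8.66 RPKM in K754M and 2.36 and 2.21 RPKM in K754R, against 3.33 and 1.704 RPKM in CJ7 WT. Lefty2 was 96.7 and 98.9 RPKM in Eed null, 9.08 and 10.36 RPKM in K754M and 1.37 and 1.09 RPKM in K754R, against 7.29 and 4.001 RPKM in WT. Eed null was highest for both genes. K754R lay below WT for Lefty2 and within the WT range for Lefty1, while K754M lay above WT for both. The log2 changes in Eed null were 3.56 ± 0.24 for Lefty1 (adjusted p = 9.9e-05) and 4.05 ± 0.25 for Lefty2 (adjusted p = 7.04e-05), and they stayed called whichever library was left out.

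In K754M EBs, Lefty1 was the single member called against WT, with a log2 change of 1.60 ± 0.24 (adjusted p = 0.0491). The call was lost without either K754M library and without WT replicate 2 (log2 change 1.21 to 1.66, adjusted p 0.14 to 0.287), and under the same 4 settings as the mESC call of Lefty2 (adjusted p up to 0.0975). Lefty2 in K754M had a log2 change of 0.79 ± 0.25 (adjusted p = 0.202). In K754R EBs, Lefty2 was lower, with a log2 change of -1.78 ± 0.25 (adjusted p = 0.00856), a call lost without either K754R library (adjusted p 0.0549 and 0.0685), and Lefty1 differed by -0.06 ± 0.24 (adjusted p = 0.905).

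Set directly against K754R EBs, K754M EBs were higher by 1.67 ± 0.24 in Lefty1 (adjusted p = 0.0179) and by 2.56 ± 0.25 in Lefty2 (adjusted p = 0.00586). The Lefty1 call was lost whichever of the 4 libraries was left out (adjusted p 0.103 to 0.13). The Lefty2 call was lost without either K754M library and without K754R replicate 2 (adjusted p 0.0564 to 0.0574). Eed null EBs exceeded K754M EBs by 1.95 ± 0.24 in Lefty1 and 3.27 ± 0.25 in Lefty2 (adjusted p = 0.00114 and 0.000152). They exceeded K754R EBs by 3.62 ± 0.24 and 5.83 ± 0.25 (adjusted p = 5.91e-05 and 1.45e-05).

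CCE EBs held little of either inhibitor. Lefty1 was 1.54 and 1.25 RPKM in the EloAhet columns and 1.77 and 1.55 RPKM in the EloAnull columns, against 0.737 and 0.602 RPKM in WT. Lefty2 was 3.10 and 1.44 RPKM in the EloAhet columns and 2.26 and 3.75 RPKM in the EloAnull columns, against 1.67 and 2.20 RPKM in WT. WT was lowest for Lefty1, the groups overlapped with the next in order for Lefty2, and neither gene was called without the replicate block. With it, Lefty1 differed in the EloAnull columns from WT by 0.89 on the log2 scale (adjusted p = 0.0484).

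Within a library, the sum of Lefty1 and Lefty2 relative to Nodal was highest in Eed null at both stages. The ratio was 7.14 and 7.24 in Eed null, 0.612 and 0.643 in K754M and 3.79 and 5.21 in K754R mESCs, against 0.947 and 1.79 in CJ7 WT mESCs. EBs had 5.62 and 4.40 in Eed null, 0.882 and 1.27 in K754M and 0.336 and 0.469 in K754R, against 1.15 and 0.951 in CJ7 WT. K754R thus stood above WT in mESCs and below WT in EBs. The balance between the 2 inhibitors also differed: Lefty2 over Lefty1 was 2.77 and 3.04 in Eed null EBs, 1.14 and 1.20 in K754M and 0.582 and 0.494 in the K754R libraries, against 2.19 and 2.35 in CJ7 WT EBs. With 2 libraries a group these ratios are given as values with no test.

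**Figure D3:**
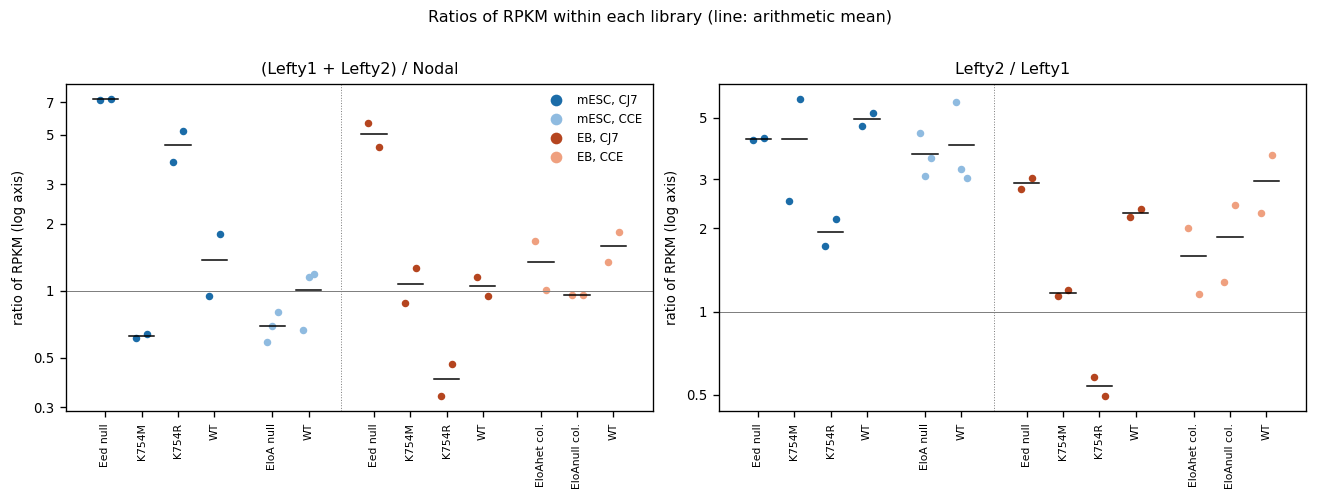
Ratios of RPKM within each library on a log axis, (Lefty1 + Lefty2) over Nodal on the left and Lefty2 over Lefty1 on the right; points are libraries, short lines are arithmetic group means, the long line marks a ratio of 1 and the dotted line separates mESCs from EBs. The sum over Nodal was 7.14 and 7.24 in Eed null mESCs and 5.62 and 4.40 in Eed null EBs, and both ratios were below 1 in K754R EBs.

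Cer1, a secreted Nodal antagonist made by the anterior visceral endoderm and by early definitive endoderm, was at 0 to 0.127 RPKM in mESCs, at most 3 estimated reads in a library. In EBs it stood at 0.792 and 0.907 RPKM in Eed null, 11.97 and 13.98 RPKM in K754M and 7.13 and 10.44 RPKM in K754R, against 11.2 and 11.1 RPKM in CJ7 WT. The Eed null libraries lay far below all others, K754R just below WT and K754M just above it. The log2 change was -3.11 ± 0.19 in Eed null (adjusted p = 7.3e-05), 0.21 ± 0.19 in K754M (adjusted p = 0.666) and -0.35 ± 0.19 in K754R (adjusted p = 0.291). Eed null EBs were also lower than K754M EBs, with a log2 change of -3.32 ± 0.19 (adjusted p = 7.11e-05), and than K754R EBs, with -2.76 ± 0.19 (adjusted p = 6.84e-05).

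In CCE EBs, Cer1 was 8.54 and 6.06 RPKM in the EloAhet columns and 0.372 and 0.679 RPKM in the EloAnull columns, against 3.78 and 4.35 RPKM in WT. The EloAnull columns were lowest, and the 3 groups did not overlap. Their log2 change was -2.92 ± 0.24 against the EloAhet columns (adjusted p = 0.0487) and -2.17 ± 0.24 against WT (adjusted p = 0.0555, and 0.0237 with the replicate block). The first call was lost whichever of the 4 libraries was left out (adjusted p 0.193 to 0.347), and under the same 4 settings as that of Cfc1 (adjusted p up to 0.0754). In the same libraries Tdgf1 and Cfc1 were also lowest in the EloAnull columns, as given above.

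Smad7, which blocks type I receptors inside the cell, was not called between 2 groups in the main fits (1 per line and stage, all libraries, no replicate block). It was 20.2 and 21.7 RPKM in Eed null, 11.3 and 19.3 RPKM in K754M and 18.4 and 23.3 RPKM in K754R mESCs, against 8.60 and 12.1 RPKM in CJ7 WT mESCs. Eed null and K754R lay above WT, with log2 changes of 1.00 ± 0.28 (adjusted p = 0.079) and 0.99 ± 0.28 (adjusted p = 0.195). With all mESC libraries in 1 fit, both changes were called (limma adjusted p = 0.0141 and 0.035). Counts over all genes rose in that fit too, to 5211 against 1805 in Eed null and 1747 against 34 in K754R. The Eed null change was also called with the replicate block (adjusted p = 0.0209). The Eed null effect exceeded the EloA null effect by 1.15 ± 0.32 (adjusted p = 0.0371), a call lost in 8 of the 10 fits that each left out 1 library: without either Eed null library, CJ7 WT replicate 1, EloA null replicate 2 or 3, or any CCE WT library (adjusted p 0.0558 to 0.14). Without the filter or with TMM rescaling it was lost too (adjusted p up to 0.0744). In EBs, Smad7 ranged from 7.05 to 19.0 RPKM. With the block, it was higher in the EloAnull than in the EloAhet columns by 0.52 on the log2 scale (adjusted p = 0.0309, against 0.154 without it). The Eed null EBs were called lower than K754R EBs when Eed null replicate 2 was left out (log2 change -0.73, adjusted p = 0.0324), against -0.36 ± 0.25 (adjusted p = 0.304) with all libraries.

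The pathway beyond the 10 genes was described with 5 lists holding 48 genes: other ligands and their processing enzymes, other receptors, other transcriptional effectors, other inhibitors, and genes known to respond to Nodal. In Eed null EBs, 8 of the 45 genes tested were higher and 14 lower than in WT. Of all 19300 genes tested there, 3703 were higher and 2164 lower (30.4% called). Of the 11 Nodal response genes, 7 were lower and 1 higher, with a median log2 change of -0.82. Mixl1, a homeobox gene of the primitive streak, was 0.764 and 1.30 RPKM in Eed null against 8.02 and 7.05 RPKM in WT EBs (log2 change -2.41 ± 0.19, adjusted p = 0.000176). Lhx1, needed for the head organizer, was 0.816 and 1.43 RPKM against 7.50 and 7.003 RPKM (-2.28 ± 0.27, adjusted p = 0.000944). Foxh1, the DNA-binding partner of Smad2 and Smad3, was 22.1 and 30.3 RPKM against 104 and 80.1 RPKM (-1.80 ± 0.18, adjusted p = 0.000438). Pcsk6, a convertase that cleaves the Nodal precursor, was higher, with 8.54 and 11.6 RPKM against 0.588 and 0.730 RPKM (3.18 ± 0.21, adjusted p = 9.17e-05). Thus in these libraries Nodal, Gdf3 and the Lefty genes were higher while 7 of the 11 response genes on the list, Foxh1, Cfc1 and Cer1 were lower.

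In K754R EBs, 7 of the 45 genes were higher and 4 lower than in WT. Of all 19300 genes tested there, 931 were higher and 937 lower (9.68% called). T (Brachyury), which marks the streak and nascent mesoderm, was 11.3 and 9.71 RPKM in K754R against 57.5 and 69.4 RPKM in WT EBs (log2 change -2.54 ± 0.16, adjusted p = 0.00098). Fst, which encodes the activin antagonist follistatin, was 3.04 and 2.33 RPKM against 12.99 and 12.41 RPKM (-2.06 ± 0.16, adjusted p = 0.00184). The co-receptor gene Tgfbr3 was higher, with 5.76 and 7.01 RPKM against 1.55 and 1.93 RPKM (1.62 ± 0.22, adjusted p = 0.00775). T was higher in K754M than in K754R EBs by 2.17 ± 0.16 and Fst by 2.16 ± 0.16 (adjusted p = 0.00209 for each), 2 of the 4 genes of the lists higher in that comparison, with 1 lower. Of all genes, 3.62% were called there.

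**Figure D4:**
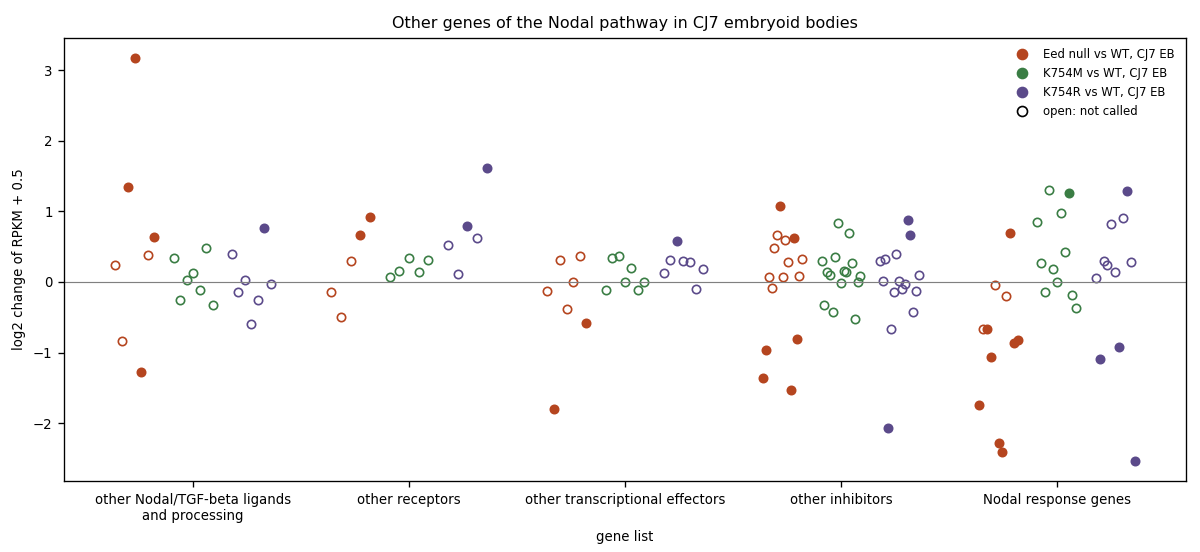
Log2 changes of RPKM + 0.5 for the other pathway genes in CJ7 EBs by gene list (horizontal axis), with Eed null, K754M and K754R each against WT in separate colours; filled points passed a limma adjusted p below 0.05 and open points did not. In Eed null EBs 7 of the 11 Nodal response genes were called lower and 1 higher, where 30.4% of all genes were called in either direction.

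In mESCs, 3 of the 43 pathway genes tested were higher and 2 lower in Eed null than in WT, where 8.59% of all genes were called. Gsc (Goosecoid), a Nodal response gene of the organizer, was 11.9 and 13.2 RPKM in Eed null against 3.58 and 2.73 RPKM in WT (log2 change 1.84 ± 0.23, adjusted p = 0.00719). Pcsk6 was 31.8 and 31.7 RPKM against 12.2 and 14.3 RPKM (1.23 ± 0.13, adjusted p = 0.0043), and Bambi, a decoy receptor, 10.8 and 9.63 RPKM against 5.14 and 5.50 RPKM (0.88 ± 0.17, adjusted p = 0.0293). Wwtr1, which encodes the Smad-binding coactivator TAZ, was lower, with 6.88 and 7.98 RPKM against 12.8 and 12.1 RPKM (-0.71 ± 0.16, adjusted p = 0.0411). No pathway gene was called in K754M mESCs (0% of all genes called) or K754R mESCs (0.162% of all genes called). In EloA null mESCs, Otx2, a homeobox gene of the epiblast, was the 1 gene of 41 called, at 3.04, 3.89 and 3.26 RPKM against 4.78, 6.19 and 5.88 RPKM in CCE WT (-0.65 ± 0.13, adjusted p = 0.0494). In that comparison 3.35% of all genes were called. The replicate block gave 4 of the 41 higher and 2 lower there, against 12.4% of all genes called.

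In CCE EBs, none of the 44 pathway genes tested was called in either column pair against WT. Of all genes, 0% were called in the EloAhet columns and 0.135% in the EloAnull columns. With the replicate block, 3 pathway genes were higher and 2 lower in the EloAnull columns than in WT, against 3.96% of all genes called. None differed in the EloAhet columns, where 0% of all genes were called.

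Cell-type markers moved with several of these results in EBs. The summed RPKM of 13 pluripotency markers was 760 to 780 in Eed null, 162 to 167 in K754M and 31.3 to 31.8 in K754R EBs, against 111 to 135 in CJ7 WT EBs, the order in which Gdf3 and Lefty2 also stood. Of all genes tested against WT, 30.4% were called in Eed null, 9.68% in K754R and 0.565% in K754M EBs. In Eed null EBs 12 of the 13 pluripotency markers were higher and none lower. In K754R EBs 5 were lower and none higher. Fibroblast markers moved the other way there: 5 of the 9 tested, among them Postn and Col3a1, were higher in K754R than in WT and none lower, and the 11 summed to 22.8 to 30.7 RPKM in K754R against 3.61 to 6.66 RPKM in WT. The sum was 7.51 to 9.24 RPKM in Eed null EBs, with 3 higher and none lower, and at most 10.9 RPKM in K754M EBs, with none called. Fap was at 0 in both libraries of K754R, K754M and WT, and Lum in those of WT. Summed RPKM of 11 visceral endoderm markers was 378 to 423 in Eed null against 46.0 to 49.7 in WT, with 9 higher and 1 lower, while Cer1, a gene of that tissue's anterior part, was lower. In K754R EBs that sum was 63.0 to 64.3, with 3 of 11 higher and 2 lower, and in K754M EBs 43.3 to 51.9, with 1 higher. Summed RPKM of 10 primitive streak and mesoderm markers was 32.2 to 34.1 in Eed null against 130 to 150 in WT, with 7 of 9 tested lower and none higher. In K754R EBs it was 111 to 142, with 3 of the 9 lower and 1 higher, and in K754M EBs 121 to 135, with none called. No marker of the pluripotency, visceral endoderm and streak lists was at 0 in all libraries of a CJ7 EB group. The part of cell composition in the members' changes was not tested.

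Of the remaining lists, summed RPKM of 6 primed epiblast markers was 67.6 to 122 in Eed null, 124 to 131 in K754M and 122 to 137 in K754R EBs, against 106 to 108 in CJ7 WT. Of the 7 neuroectoderm markers 6 were found, and their sum was 31.8 to 35.4 in Eed null against 11.7 to 22.2 in WT EBs. Most of this sum was Tubb3 and Nes, with means of 29.5 and 8.50 RPKM over all 28 libraries. Pax6, Zic1, Hes5 and Neurog2 had means of at most 0.157 RPKM. In mESCs the sum ran from 22.7 in K754M to 68.9 in K754R, so it does not track neuroectoderm alone, here or in CCE EBs. In the EloAnull columns, visceral endoderm markers summed to 69.8 to 86.7, against 51.5 to 52.0 in the EloAhet columns and 40.8 to 40.9 in CCE WT EBs. Fibroblast markers summed to 29.4 to 35.1 in the EloAnull columns, against 9.90 to 13.003 in the EloAhet columns and 15.7 to 18.5 in CCE WT EBs. In the same order, neuroectoderm markers summed to 42.8 to 53.2, against 13.7 to 30.8 and 16.0 to 34.5. Primitive streak and mesoderm markers summed to 130 to 137, against 133 to 169 and 160 to 200. Pluripotency markers summed to 45.6 to 67.5, against 58.7 to 84.9 and 53.3 to 72.6. Primed epiblast markers summed to 36.6 to 50.2, against 55.8 to 63.5 and 45.6 to 58.9.

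The genes most like 4 of the members were sought over the 13 group means of log2(RPKM + 0.5), each stage centred on its own mean, among 14084 genes with a mean of at least 1 RPKM. These correlations describe group means, several of which share a cell line and a stage, with n = 13, and carry no test. Nodal was most like Sh3tc1 (Pearson r = 0.928), Cldn4 (0.924) and Bcl2l1 (0.924). For Lefty2 the nearest were Rps6kl1 (0.985), Rhox9 (0.969) and Tst (0.968). Cfc1 was most like Stxbp4 (0.957) and Gm15219 (0.953), and Tdgf1 most like Usp44 (0.955), Arl15 (0.940) and Wnt8a (0.921).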

How the data were processed

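Total RNA from 28 libraries was sequenced after ribosomal RNA depletion. The authors deposited 1 table of RPKM values per stage, each with 14 libraries. Per the submitters' processing notes, CASAVA 1.7, STAR and build mm9 were used; the sources used here do not give the counting program, the annotation or the strand setting. The 10 genes and all lists were chosen with earlier results of these data known.

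Values were analysed as log2(RPKM + 0.5) for genes of at least 0.25 RPKM in at least 2 libraries of a fit, with limma 3.58.1 (trend) in R 4.3.3 and Benjamini-Hochberg adjustment over all genes of the fit; a call is an adjusted p below 0.05. Separate fits held the CJ7 mESC, CCE mESC, CJ7 EB and CCE EB libraries, so groups within a fit share 1 estimate of spread. A further fit over all 14 mESC libraries gave the difference between the Eed null and EloA null effects. The test was also run on simulated data, with independent noise in each library and changes added only to genes of at least 1 RPKM in every library. That run does not cover low genes or paired libraries. The added 0.5 RPKM understates changes of low genes. Where a symbol had several rows, the one with the highest mean was taken. Besides all members, up to 4 called pathway genes with the largest change per comparison are named, and the 3 genes most like each of 4 members; some of these genes are not reported here.

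Depth is not stated in the tables. It was estimated from the steps between low values (under 0.3 RPKM) with GENCODE gene lengths of GRCm38, which gave 39.5 to 45.5% of low values within 0.02 of a whole read; reads behind low values are estimates, and the deposited RPKM values were not turned into counts.

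Replicate numbers were used as a block in an alternative fit. In CCE mESCs the deviations of same-numbered EloA null and WT libraries correlated in all 3 pairs (r = 0.216 to 0.512), and in CCE EBs in all 6 pairs (r = 0.183 to 0.425; with 2 libraries a group the deviations mirror each other, so only 3 of the values are distinct). All exceed 0.1, a hint from the data that the numbers pair the CCE libraries, since the labels do not say what a number shares. The main CCE fits use no block and so ignore any such pairing. Results with the block are therefore given beside them. Other alternatives were pseudocounts of 0.1 and 1, no filter and a filter of 1 RPKM, rescaling by an unweighted trimmed mean of M values (TMM), no trend, all libraries of a stage in 1 fit, and leaving out each library.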

Additional observations from a re-analysis of the deposited data

Results flagged for a closer look

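The Eed null effect in CJ7 mESCs and the EloA null effect in CCE mESCs differed by the test of the difference in 4 members, with log2 differences of 1.19 for Smad3, 3.33 for Lefty1, 3.27 for Lefty2 and 1.15 for Smad7. Each was the higher change in Eed null cells, and line and genotype cannot be told apart in this contrast.

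Gdf3 stood on opposite sides of WT at the 2 stages in Eed null libraries, with a log2 change of -0.17 in mESCs and 3.74 in EBs. Lefty2 did so in K754R libraries, with 2.14 in mESCs and -1.78 in EBs. Neither mESC change was called in the main fit (limma adjusted p = 0.662 for Gdf3 and 0.236 for Lefty2). With all mESC libraries in 1 fit, that of Lefty2 was called (adjusted p = 0.0478). In both cases every library of the group lay on that side of every WT library, with 2 libraries a group. The difference between the stages was not tested, and how many of all genes do the same was not counted.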

How the results depend on the processing

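Of 130 tested values of the 10 genes, 38 were called; 29 stayed called in every setting that left out no library and 21 whichever library was left out. Of 1613 alternatives of these values none reversed a called change, 87 lost a call and 31 gained one. The number of members called changed as follows. In Eed null mESCs it was 2, against 1 with a pseudocount of 0.1, without the filter, with TMM rescaling or without the trend, 4 with all libraries of the stage in 1 fit, 3 with the replicate block (Smad7 gained, adjusted p = 0.0209) and 0 to 2 with 1 library left out. With the block, 12.3% of all genes were called in Eed null mESCs, against 8.59% without it. In K754R mESCs the number of members called was 0, against 3 in the stage fit. In EloA null mESCs it was 1, against 4 with the replicate block, 0 without the filter or in the stage fit, and 0 to 1 with 1 library left out. In K754M EBs it was 1, against 0 with a pseudocount of 0.1, without the filter, with TMM rescaling or without the trend, and 0 to 1 with 1 left out. In K754R EBs it was 4, against 2 without the filter and 1 to 2 with 1 left out; for K754M against K754R EBs it was 4, against 1 to 3. In the EloAnull columns against WT it was 0, against 7 with the replicate block. It was 3 with a filter of 1 RPKM (Nodal, Cfc1 and Cer1, limma adjusted p 0.0342 to 0.0437). In the stage fit it was 5 (Nodal, Tdgf1, Cfc1, Smad3 and Cer1, adjusted p 0.00227 to 0.0346). Against the EloAhet columns it was 2, against 0 with a pseudocount of 0.1, without the filter, with TMM rescaling or without the trend, 4 with the replicate block and 0 in each fit with 1 left out. For the difference between the Eed null and EloA null effects it was 4, against 1 to 4. The cause was not tested; fits with a library left out have fewer samples.

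Counts over all genes moved by over 1.5 times as well. In the stage fit they were 5211 (against 1805) in Eed null, 955 (against 0) in K754M and 1747 (against 34) in K754R mESCs, 296 (against 619) in EloA null mESCs, 434 (against 109) in K754M EBs, 1358 (against 698) for K754M against K754R EBs, 591 (against 24) in the EloAnull columns against WT and 794 (against 78) against the EloAhet columns. With the replicate block they were 2 in K754R mESCs, 2288 in EloA null mESCs, 230 in K754M EBs, 2950 (against 1868) in K754R EBs, 1099 for K754M against K754R EBs, 703 in the EloAnull columns against WT and 1462 against the EloAhet columns. Without the filter they were 14 in K754R mESCs, 58 in K754M EBs, 1199 in K754R EBs, 425 for K754M against K754R EBs, 1 in the EloAnull columns against WT and 32 against the EloAhet columns; with a filter of 1 RPKM, 185 in K754M EBs, 150 in the EloAnull columns against WT and 152 against the EloAhet columns. TMM rescaling gave 63 and no trend 60 in K754M EBs, no trend gave 2 in the EloAnull columns against WT, and against the EloAhet columns TMM gave 2, no trend 1 and a pseudocount of 0.1 gave 1, as it did in K754M mESCs. With 1 library left out the counts were 179 to 417 in Eed null, 0 in K754R and 158 to 640 in EloA null mESCs, 0 to 17 in K754M EBs, 177 to 1249 in K754R EBs, 21 to 64 for K754M against K754R EBs, 2847 to 3971 (against 5241) for Eed null against K754M EBs, 4074 to 5546 (against 6570) for Eed null against K754R EBs, 0 to 1 in both comparisons of the EloAnull columns and 1190 to 2468 (against 2957) for the difference of effects. Same-numbered libraries correlated with r of 0.0334 to 0.348 in CJ7 mESCs and 0.0116 to 0.229 in CJ7 EBs. The highest of these values exceed the lowest of the CCE line (0.216 in mESCs and 0.183 in EBs). What a shared number means in CJ7 is not given by the labels and was not tested.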
